A study of Macaca mulatta with 24 samples.

Results

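Hemoglobin and erythroid transcripts were followed in the jejunum of rhesus macaques after total-body irradiation (TBI). The genes considered were HBB, HBA2, ALAS2, AHSP and EPB42, and every array probe that carried 1 of these symbols in the authors' table was taken. This gave 6 probes of 4 genes, out of 43603 probes and 16094 gene symbols on the array: 2 for HBB, 2 for HBA2, 1 for ALAS2 and 1 for AHSP. No probe carried the symbol EPB42. The probes were kept apart because those of HBA2 disagreed. The 5 genes had been picked for their differences from control in these same samples, so their values against control are given as a description, without a test.

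Gene expression was read on Agilent arrays with 1 dye per array, in which labelled RNA binds to DNA probes. The 24 young-adult male animals were either left unirradiated (4 arrays) or given 1 dose of cobalt-60 gamma radiation to the whole body. The doses were 6.7 Gy (4 arrays on day 4, 4 on day 7 and 2 on day 12) and 7.4 Gy (4, 4 and 2 arrays on the same days). Every array held RNA of 1 animal from full-thickness gut, so mucosa, muscle, vessels and the blood in them were measured together. The same 4 controls, labelled day 4, served both doses and all days. The treatment text in the labels names day 21 as the last time, whereas the day label of these arrays is 12.

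Hemoglobin carries oxygen in red cells and is a tetramer of alpha-type and beta-type globin chains, each holding a heme group. HBB encodes the adult beta chain and HBA2 an adult alpha chain. ALAS2 is the erythroid enzyme of the first step of heme synthesis, AHSP is a chaperone that binds free alpha chains, and EPB42 (band 4.2) ties the red cell membrane to its skeleton. Mature red cells of mammals have no nucleus, young red cells (reticulocytes) still carry globin mRNA, and in the adult red cells are made in the bone marrow, whose precursors are sensitive to radiation. In a whole-tissue sample, fewer cells of a type and less RNA per cell cannot be told apart.

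Levels are on a log2 scale, as the corrected signal relative to the 75th percentile of its array, so that 1 unit is a 2-fold difference. A probe was detected on an array where the scanner software marked it as well above background. The share of probes detected ran from 39.4% to 87.7% of the 43603 probes on the 24 arrays. Arrays on 2 of the 6 slides had a high background: the lowest detected signal was 130 to 277 on slide 5 and 40.6 to 83.0 on slide 4. The controls lay at position 1 of slides 1 to 4 and were all scanned on the first of 2 scan days, and both arrays of the 7.4-Gy day 12 group lay on slides without a control. The label as small bowel was borne out by absorptive enterocyte genes, which do not tell jejunum from ileum: all 8 with a probe passed the detection filter, and in controls FABP1, a fatty acid binding protein, stood at 7.77 ± 0.12 and RBP2, a retinol binding protein, at 7.62 ± 0.14 (SD, n = 4).

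The 2 HBB probes and 1 HBA2 probe were lower on all 20 irradiated arrays than on any control array. The other HBA2 probe, AHSP and ALAS2 overlapped with control in every irradiated group. Thus 3 of the 6 probes lay below every control array in each group. Over all 28171 probes tested, 7.66%, 3.16% and 7.43% did so on days 4, 7 and 12 of the 6.7-Gy groups and 10.1%, 5.38% and 9.5% on these days of the 7.4-Gy groups. Over the same probes, the share called different from control by limma was 1.98% on day 4, 0.0639% on day 7 and 0.0071% on day 12 after 6.7 Gy, and 2.6%, 0.288% and 0.00355% on the same days after 7.4 Gy. These shares are background only, since the probes were chosen on this contrast.

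The first HBB probe (A_01_P1671806) read 1.54, 2.14, 3.22 and 3.78 on the 4 controls. On day 4 it read -3.66, -3.86, -5.52 and -3.95 after 6.7 Gy and -2.09, -3.98, -4.04 and -4.74 after 7.4 Gy. On day 7 it read -6.47, -4.72, -4.28 and -6.51 after 6.7 Gy and -4.80, -6.38, -7.15 and -5.45 after 7.4 Gy. Every animal of days 4 and 7 thus lay well under the lowest control. On day 12 the 6.7-Gy animals read -2.50 and -2.97, and the 7.4-Gy animals read -2.16 and 0.70. The highest irradiated array, the second of the 7.4-Gy day 12 group, was the only one above 0 and still lay under the lowest control.

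As group means, the first HBB probe stood at 2.67 ± 1.02 in controls (SD, n = 4). It stood at -4.25 ± 0.85 (n = 4) on day 4 after 6.7 Gy, 121-fold lower as measured, and at -3.71 ± 1.14 (n = 4) after 7.4 Gy. On day 7 it stood at -5.49 ± 1.16 after 6.7 Gy and at -5.94 ± 1.03 after 7.4 Gy (n = 4 each). On day 12 it stood at -2.73 ± 0.33 after 6.7 Gy and at -0.73 ± 2.02 after 7.4 Gy (n = 2 each), the former 42.4-fold lower. No fold is given for the groups in which only 1 array or 2 of 4 detected the probe. From the top, the order of the means as measured was control, 7.4-Gy day 12, 6.7-Gy day 12, 7.4-Gy day 4, 6.7-Gy day 4, 6.7-Gy day 7 and 7.4-Gy day 7. Neighbours in this order overlapped from the 6.7-Gy day 12 group downwards. The day 12 groups cannot be ranked against each other, because the lower 7.4-Gy array did not detect the probe, and both lay under every control.

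The size of the HBB difference depends on the background, because many irradiated arrays read close to it. The first HBB probe was detected on all 4 controls but on 11 of 20 irradiated arrays: 3 and 1 of 4 on day 4 after 6.7 and 7.4 Gy, 2 and 2 of 4 on day 7, and 2 and 1 of 2 on day 12. Where all levels were raised to a common floor of -1.85, the highest detection limit of any array, the difference from control was -4.52 in 5 of the 6 groups and -3.25 in the 7.4-Gy day 12 group. The groups of days 4 and 7 all lie at that floor and have no order on it.

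The second HBB probe (A_01_P1726606) read -0.99, -0.71, 0.51 and 0.96 on the controls and was detected on all of them. It was detected on 3 of the 20 irradiated arrays, which were 1 of 4 on day 4 after 7.4 Gy and 1 of 2 in each day 12 group. In the 3 groups in which no array detected it, only a bound can be given: at least 36.4-fold lower on day 4 after 6.7 Gy, at least 50.8-fold on day 7 after 6.7 Gy and at least 46.6-fold on day 7 after 7.4 Gy. These bounds set the control mean against the higher, array by array, of the detection limit and the probe's own value. On day 12 it read -5.40 and -6.37 after 6.7 Gy and -4.32 and -2.24 after 7.4 Gy. The array that read highest was again the second of the 7.4-Gy day 12 group, the same animal as for the first HBB probe.

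The first HBA2 probe (A_01_P1670786) is annotated in the file as HBA2, and its RefSeq accession now carries the symbol HBA. It read 1.09, 1.36, 2.42 and 3.13 on the controls. On day 4 it read -2.23, -1.47, -2.15 and -1.92 after 6.7 Gy and -1.58, -2.29, -2.61 and -2.29 after 7.4 Gy. On day 7 it read -1.95, -1.81, -1.91 and -2.19 after 6.7 Gy and -2.84, -2.25, -1.98 and -1.99 after 7.4 Gy. The 16 irradiated arrays of days 4 and 7 therefore lay in a narrow band well under the controls, from -2.84 to -1.47. On day 12 it read -1.06 and -1.31 after 6.7 Gy and -1.03 and 0.23 after 7.4 Gy, and all 4 values were above every array of days 4 and 7.

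This probe was detected on 22 of 24 arrays, so its differences from control depend less on background than those of HBB. The mean was 2.00 ± 0.95 in controls (SD, n = 4). It was lower than control by a log2 difference of -3.94 on day 4 and -3.97 on day 7 after 6.7 Gy, and of -4.19 and -4.27 after 7.4 Gy, which is 15.4-fold to 19.2-fold lower. On day 12 the differences were -3.19 after 6.7 Gy and -2.40 after 7.4 Gy, which is 9.10-fold and 5.29-fold. In descending order the groups were control, 7.4-Gy day 12, 6.7-Gy day 12, 6.7-Gy day 4, 6.7-Gy day 7, 7.4-Gy day 4 and 7.4-Gy day 7. Neighbours among the last 4 overlapped, and those above did not. Without the arrays of slides 4 and 5 the 7.4-Gy day 12 group, then 1 array, differed from control by -1.40.

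The second HBA2 probe (A_01_P000724) did not follow this pattern. It was detected on all 24 arrays and read between 6.67 and 7.99 throughout. Its controls read 7.58 ± 0.35 (SD, n = 4). The irradiated groups differed from control by -0.54 to -0.24, all in the lower direction, with overlap in each group. The RefSeq accession of this probe now carries the symbol HBA1, and alpha globin genes are near-identical copies of each other, so which transcripts each probe reads is uncertain. The 2 probes to alpha globin thus gave different pictures of the same gene family, and their levels cannot be set against each other.

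**Figure D1:**
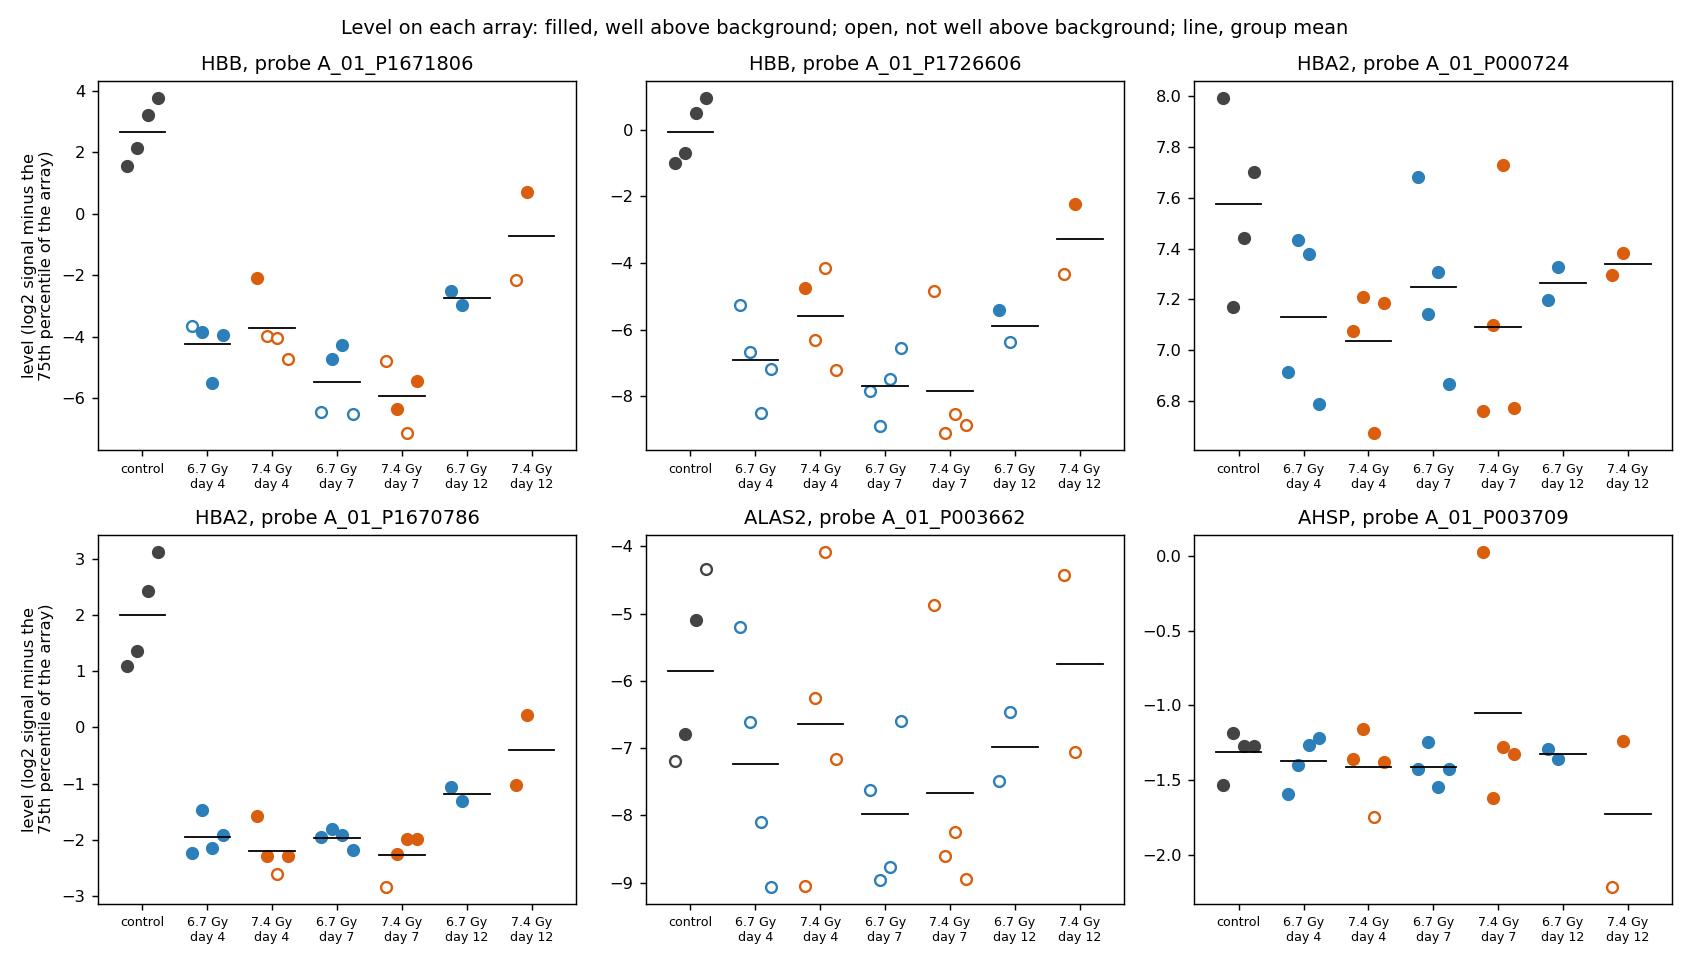
Level of each of the 6 probes (log2 signal minus the 75th percentile of the array, own scale in each panel) on the 24 arrays by group, with group means as lines. Filled points were well above background and open points were not. Both HBB probes and HBA2 A_01_P1670786 lay below all 4 controls on all 20 irradiated arrays, whereas HBA2 A_01_P000724 ran from 6.67 to 7.99 throughout.

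AHSP (A_01_P003709) stayed close to its control level. The controls read -1.53, -1.18, -1.27 and -1.27, and the group means after irradiation differed from control by -0.41 to 0.27. AHSP was detected on 22 of 24 arrays. Both ends of this range rested on 1 array of slide 5 each: without the first array of the group, the -0.41 of day 12 after 7.4 Gy was 0.08 and the 0.27 of day 7 after 7.4 Gy was -0.09. Both arrays that missed it and the array that read highest lay on slide 5: 0.03 in the first 7.4-Gy day 7 array, against -1.62, -1.28 and -1.32 in the rest of that group. The same RNA in which HBB and the first HBA2 probe were low thus gave AHSP levels that overlapped with control.

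ALAS2 (A_01_P003662) was detected on 2 of 24 arrays, both of them controls, which read -6.79 and -5.09. No irradiated array detected it, and it was not tested. Since it was at or near background in all groups, no fold is given. EPB42 has no probe by name, but a probe annotated LOC709427 (A_01_P1685731) has the RefSeq gene number of EPB42. It was detected on 14 of 24 arrays, 3 of them controls, and its group means differed from control by -0.28 to 0.24. It did not pass the detection filter and was not tested.

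As a further description, the same values were set against the control on their own slide. Slides 1 to 4 each carried 1 control and 3 irradiated arrays, which gives 12 comparisons on the same slide and scan day. Each control enters 3 of them, so they are not independent, and no share over all probes was counted. The HBB probes and the first HBA2 probe lay below every control on every irradiated array. For them a lower value on all 12 was therefore fixed beforehand, and only the size is informative. The first HBB probe was lower on 12 of 12, of which 8 detected it. With undetected arrays held at the higher of their limit and their own value, its log2 difference was at least 5.31 to 8.06 (median 7.07). The second HBB probe was lower on 12 of 12, of which 2 detected it, and with the same rule its difference was at least 4.55 to 6.95 (median 5.30). The first HBA2 probe was detected on all 12 and lower on 12 of 12, by a log2 difference of -5.42 to -3.04 (median -3.42). The second HBA2 probe was also lower on 12 of 12 but by -0.83 to -0.03 (median -0.37), and AHSP was lower on 8 of 12, with a median of -0.05. ALAS2 read lower on 12 of 12 (median -2.16), but none of the 12 detected it, and the control was above the detection limit of the irradiated array in 4 of the 12.

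**Figure D2:**
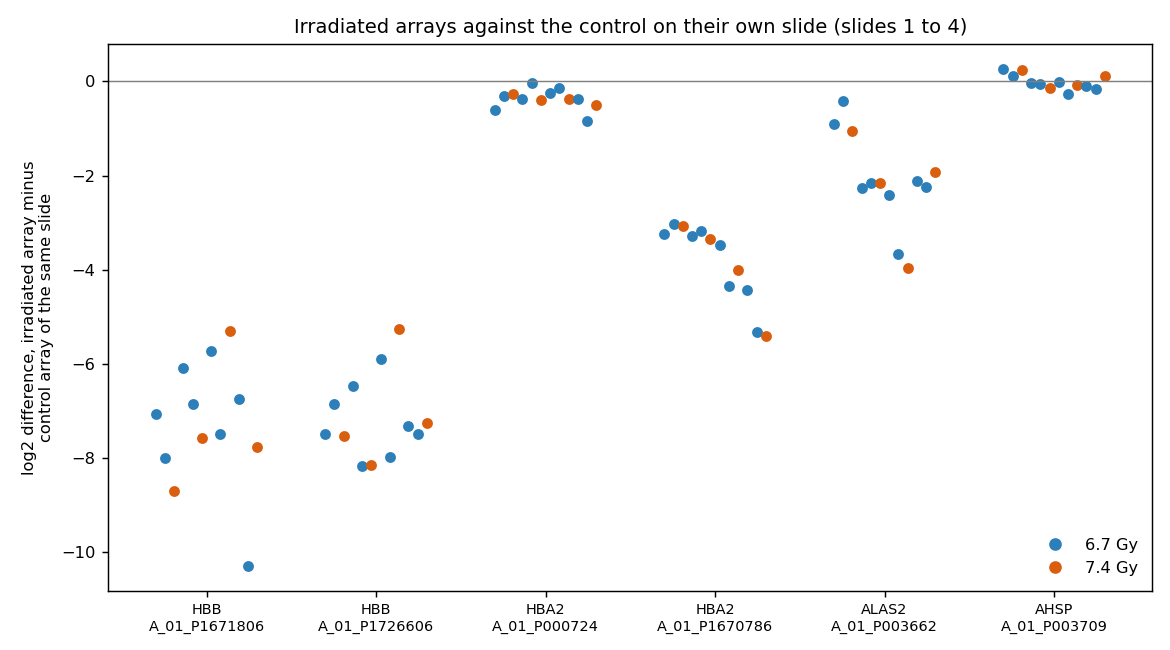
Log2 difference of each of 12 irradiated arrays from the control array of the same slide, for the 6 probes, colored by dose. As measured, undetected arrays included, the HBB probes lay between -10.29 and -5.25 and HBA2 A_01_P1670786 between -5.42 and -3.04, while AHSP lay on both sides of 0.

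Position 1 of slides 5 and 6 held the first and second arrays of day 4 after 6.7 Gy, and these read -3.66 and -3.86 for the first HBB probe and -2.23 and -1.47 for the first HBA2 probe. The first of them did not detect HBB. The part of the position in the differences from control was not tested. Without the arrays of slides 4 and 5, the difference from control for the first HBB probe was -6.74 on day 4 after 6.7 Gy and -4.80 on day 12 after 6.7 Gy, where 1 array was left. The other groups of days 4 and 7 each kept 1 array that did not detect the probe, and no difference is given for them. The 7.4-Gy day 12 group shared no slide or scan day with a control, and it too was left with 1 array, with a difference of -1.60, so the animal, the slide and the time cannot be told apart there.

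Whether globin transcripts changed between days was asked within each dose, in 1 limma model of all 24 arrays. The arrays are the same in which the probes were chosen, although the choice was made on the contrast with control. Of the 5 probes tested, 1 was called higher on day 12 than on day 7 after 7.4 Gy, where 0.0248% of all probes were called, and 0.0142% called higher. This was the first HBB probe, which rose by 5.21 ± 0.88 (SE; adjusted p = 0.0447, limma; 95% interval 3.37 to 7.06). It was detected on 1 of 2 arrays of day 12 and on 2 of 4 of day 7. On the common floor the difference was 1.28 (adjusted p = 0.392) and with normexp background 3.31 (adjusted p = 0.0653), so its size and its call changed with how readings near background were treated. Without the second day 12 array the difference was 3.78 and did not pass (adjusted p = 0.069). Without any 1 of the 4 day 7 arrays it was 4.81 to 5.60 (adjusted p = 0.062 to 0.118), and without the arrays of slides 4 and 5 it was 7.03 (adjusted p = 0.129).

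The first HBA2 probe was the 1 of 5 called higher on day 12 than on day 4 after 7.4 Gy, where 2.42% of all probes were called and 0.816% called higher. It rose by 1.79 ± 0.44 (SE; adjusted p = 0.0319, limma; 95% interval 0.87 to 2.71). It was 1.86 higher on day 12 than on day 7, which did not pass (adjusted p = 0.193). On the common floor the day 12 against day 4 difference was 1.38 (adjusted p = 0.0621). In the same comparison the first HBB probe was 2.98 higher, which did not pass (adjusted p = 0.0612). Without the second day 12 array the HBA2 difference was 1.16 (adjusted p = 0.248). Without the first day 12 array it was 2.42 (adjusted p = 0.112), and it was 1.76 and 1.65 without array 2 or array 3 of day 4 (adjusted p = 0.0576 and 0.0638). Both calls thus rest on a group of 2 animals that differ widely. The second HBB probe was detected on 3 of the 20 irradiated arrays and entered the fit through the controls, so its differences between days and doses are mostly between readings at background and are not described further.

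After 6.7 Gy, none of the 5 probes passed between days. The share of all probes called was 1.55% for day 7 against day 4, 0.951% for day 12 against day 4 and 0.00355% for day 12 against day 7. At an unadjusted p under 0.05 and 2-fold, the limma counts were 0, 0 and 1 of 5, beside 3.3%, 4.82% and 1.48% of all probes, and the probe-by-probe test of the study's methods gave 0 in each. The 1 was the first HBB probe, which was 2.76 higher on day 12 than on day 7 (adjusted p = 0.454; 95% interval 0.92 to 4.60). The direction as measured was that of the 7.4-Gy call, and the difference did not pass over all probes tested. The probe was detected on 2 of 4 of these day 7 arrays. All arrays of both groups read below the common floor, so no difference was left on it.

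From day 4 to day 7 none of the 5 probes passed at either dose. After 7.4 Gy, where 1.64% of all probes were called, the first HBB probe was 2.23 lower on day 7 (adjusted p = 0.0797). At an unadjusted p under 0.05 and 2-fold in limma, 2 of 5 passed, which were the HBB probes, beside 3.1% of all probes. The probe-by-probe test of the methods gave 0. The second HBB probe was detected on 1 of 4 of these day 4 arrays and on 0 of 4 of day 7. The first HBB probe was detected on 1 of 4 of these day 4 arrays and on 2 of 4 of day 7, and on the common floor its difference was 0. The first HBA2 probe differed by -0.02 after 6.7 Gy (95% interval -0.78 to 0.73) and by -0.07 after 7.4 Gy (-0.83 to 0.68). These intervals hold any difference between day 4 and day 7 in the first HBA2 probe to under 2-fold either way.

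**Figure D3:**
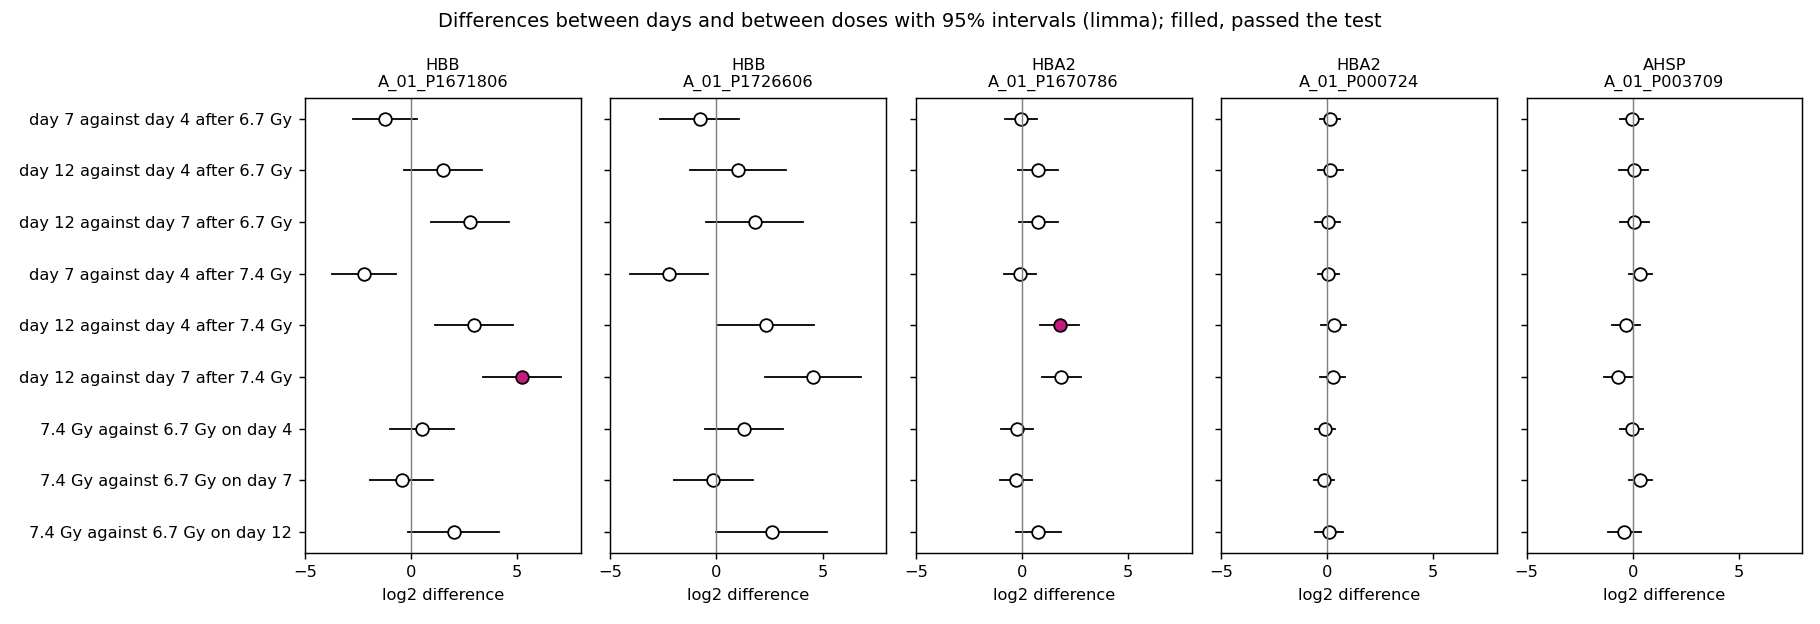
Log2 difference between days and between doses for the 5 tested probes, with 95% intervals from limma over all 24 arrays. Filled points passed the test: HBB A_01_P1671806 on day 12 against day 7 after 7.4 Gy (5.21) and HBA2 A_01_P1670786 on day 12 against day 4 after 7.4 Gy (1.79).

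The doses were compared on each day. None of the 5 probes passed on day 4, 7 or 12, and neither did any of the 28171 probes in limma (0% called on each day). With p unadjusted, under 0.05 and past 2-fold, the counts over all probes were 78, 207 and 531 (0.277%, 0.735% and 1.88%), none of them among the 5, and the probe-by-probe test of the methods gave 0 of 5 on each day. As measured, the first HBB probe was 0.53 higher on day 4 after 7.4 Gy than after 6.7 Gy (95% interval -0.97 to 2.04). On day 7 it was -0.45 (-1.95 to 1.05), and on day 12 it was 2.01 higher after 7.4 Gy (-0.12 to 4.13; adjusted p = 0.996, limma). After 6.7 and 7.4 Gy it was detected on 3 and 1 of 4 arrays on day 4, 2 and 2 of 4 on day 7 and 2 and 1 of 2 on day 12. On the common floor the groups of days 4 and 7 have no order.

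These HBB intervals leave room for differences of several fold between the doses, in particular on day 12 with 2 animals each. They rest partly on readings that were not detected. For the first HBA2 probe the intervals were narrower: -0.25 on day 4 (-1.003 to 0.51), -0.30 on day 7 (-1.05 to 0.46) and 0.78 on day 12 (-0.28 to 1.85). The course over days was not shown to differ between doses for any of the 5 probes (moderated F test, smallest adjusted p = 1.00). None of the 5 had an unadjusted p under 0.05 in that test, and 3.17% of all probes did, while 0% of all probes were called.

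Among the irradiated arrays alone, the first HBA2 probe was correlated with the first HBB probe. Over the 20 irradiated arrays r was 0.747 and rho 0.599 (permutation p = 0.00034 and 0.00667, adjusted 0.00068 and 0.0133 over 4 relations). Without the 2 arrays farthest from the median of HBB, r was 0.600, and over the 13 irradiated arrays off slides 4 and 5 it was 0.867. The first HBB probe was detected on 11 of these 20 arrays and lay above the common floor on 1 of them, so part of the relation lies among readings near background, and days with high and low levels are pooled. The permutation ignored dose and day. Its p therefore also counts differences between group means and does not show that the probes moved together within groups. For the second HBB probe, detected on 3 of the 20 and above the common floor on 0, no correlation is given.

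The other tested probes gave weak correlations with the first HBB probe. The second HBA2 probe had r = -0.035 (permutation p = 0.884, adjusted 0.884) and rho = 0.015 (permutation p = 0.952, adjusted 0.952). AHSP had r = -0.109 (permutation p = 0.633, adjusted 0.845) and rho = 0.017 (permutation p = 0.947, adjusted 0.952). Without the 2 farthest arrays r was 0.018 and -0.193. On the 13 arrays off slides 4 and 5, r was -0.193 and 0.334.

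**Figure D4:**
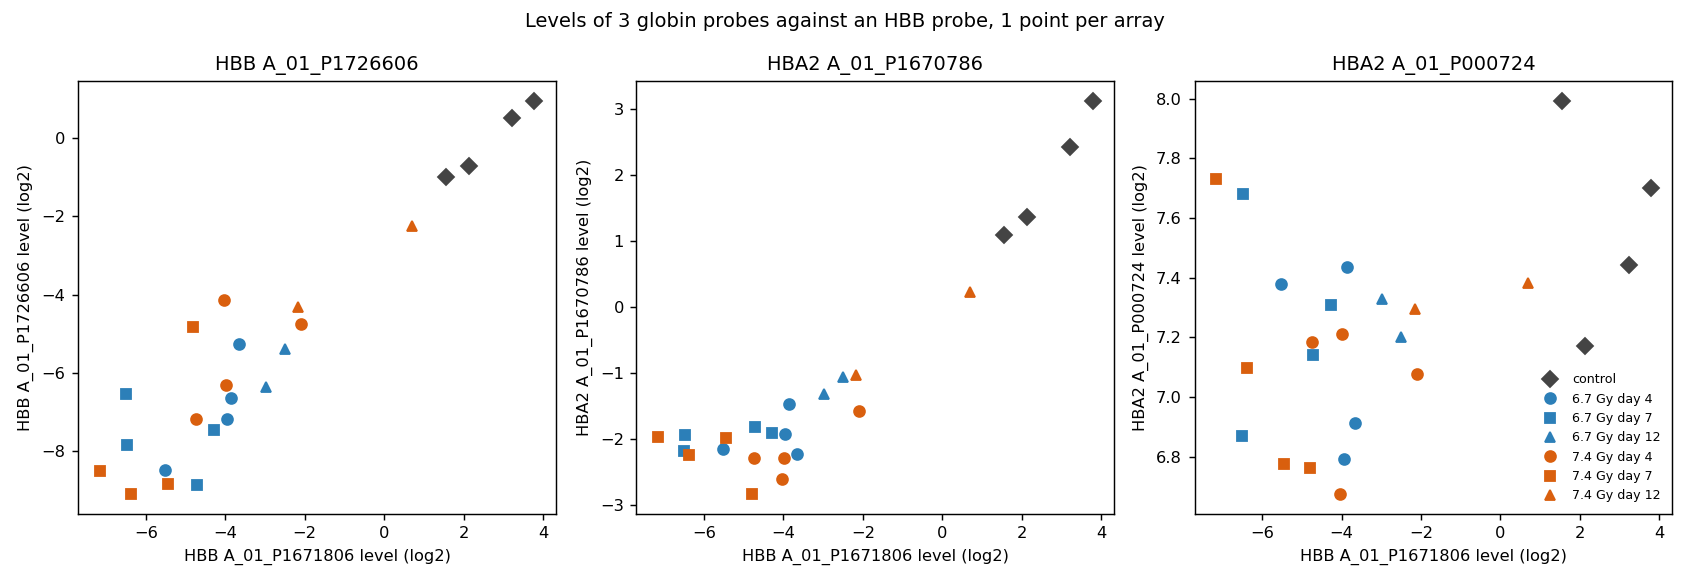
Levels (log2) of HBB A_01_P1726606, HBA2 A_01_P1670786 and HBA2 A_01_P000724 against HBB A_01_P1671806, 1 point per array, with groups by color and shape. Over the 20 irradiated arrays r was 0.747 for HBA2 A_01_P1670786 and -0.035 for HBA2 A_01_P000724, and the second array of day 12 after 7.4 Gy lies nearest to the controls in the first 2.

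The probes most like the first HBB probe over the 24 arrays were the second HBB probe (r = 0.938) and the first HBA2 probe (r = 0.929). Of the named genes that followed, SERPINA2, a relative of the alpha-1-antitrypsin gene, had r = 0.916 and SLC6A8, the creatine transporter, r = 0.820. RAB30 (a small GTPase), INPP5J (an inositol phosphatase) and C2CD2L had r = 0.801, 0.781 and 0.780. SERPINA2 read 0.31 to 2.24 on the controls and -2.54 to -0.32 on the irradiated arrays, without overlap. These correlations are descriptions in which the 4 controls set much of the value. On the common floor SERPINA2 (r = 0.987) came just before the first HBA2 probe (r = 0.985) and the second HBB probe (r = 0.928), and GNRH1, UBE2J1, TNIP3 and CABLES1 followed (r = 0.895 to 0.831).

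Whether the genes around hemoglobin changed with it was asked of 86 other genes in 7 lists: other globins, heme synthesis, red cell membrane and skeleton, erythroid regulators, red cell enzymes, hemoglobin and heme clearance, and globins of other cells. Of these, 62 had a probe and 48 were tested. On day 4 after 6.7 Gy, 1 rose and 2 fell, where 1.25% of all probes were called higher and 0.731% lower. On day 4 after 7.4 Gy, 1 rose and 2 fell, where 1.71% and 0.887% were called. None passed on day 7 or day 12 at either dose.

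The median log2 difference of the 48 genes was -0.17 and -0.20 on day 4 after 6.7 and 7.4 Gy, beside -0.06 and -0.08 over all probes tested. It was -0.04 and -0.03 on day 7 and 0.01 and -0.09 on day 12. On days 7 and 12 the limma counts at an unadjusted p under 0.05 and 2-fold were 0 and 1 of 48 after 6.7 Gy (1.56% and 1.83% of all probes) and 2 and 0 after 7.4 Gy (2.97% and 2.55%), and the probe-by-probe test of the methods gave 0 in all 4. The 6 calls of day 4 moved with the processing. With the slide as a block 0 of 48 passed at either dose, and with the replicate number as a block 0 passed after 6.7 Gy and 1 after 7.4 Gy.

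Among the other globins, HBE1 (embryonic) and HBQ1 (theta) were detected on all 24 arrays, and neither passed against control. HBE1 differed from control by -0.02 to 0.52 and HBQ1 by -0.36 to 0.61 in the 6 groups. The 0.52 of HBE1 came from day 4 after 7.4 Gy, where 1 array on slide 5 read 1.03, and it was -0.10 without that array. HBG2, a fetal gamma chain, had 4 probes. The tested one (A_01_P010779) differed by -0.81 to 0.02, with the smallest adjusted p = 0.133 on day 7 after 7.4 Gy. Another (A_01_P1679746), too dim to be tested, read -4.40 to -3.09 on the controls and -7.28 to -4.15 on the irradiated arrays, and was detected on 3 of 4 and 9 of 20 of them. Of the others, A_01_P1679741 was detected on 13 of 24 arrays, with differences of -0.62 to 0.21, and A_01_P1819881 on none. HBM, an alpha-like globin gene, was detected on 15 of 24 arrays and not tested. No probe was named HBA1, HBD, HBG1 or HBZ.

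Of the heme synthesis genes, 0 of 11 tested rose and 1 fell against control. SLC25A37, which brings iron into the mitochondria of red cell precursors, fell by 1.02 on day 4 after 7.4 Gy, from 1.58 ± 0.15 to 0.56 ± 0.17 (SD, n = 4 each; adjusted p = 0.0112, limma). A second probe for SLC25A37 differed by -0.75 (adjusted p = 0.069). Without control 2 or 3 or day 4 array 1 or 4 the SLC25A37 difference was -0.98 to -0.97, under 2-fold. After 6.7 Gy the difference on day 4 was -0.93, under 2-fold. Of the membrane and skeleton genes, 1 of 9 rose and 0 fell. ICAM4, a red cell adhesion protein, was 2.92 higher on day 4 after 7.4 Gy (adjusted p = 0.0036, limma), at -1.22 ± 0.58 against -4.14 ± 0.30 in controls, 3 of 4 of which detected it. Over the common floor this difference was 0.64 (adjusted p = 0.274). SLC4A1, the anion exchanger of the red cell membrane, had no named probe.

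Of the erythroid regulators, 0 of 8 tested passed against control, with the smallest p for GFI1B, a repressor in red cell and platelet precursors, at -0.91 on day 7 after 7.4 Gy (adjusted p = 0.0958). GATA1 and KLF1, the transcription factors that switch on globin genes, and EPOR, the erythropoietin receptor, were detected on 3 of 4 controls each and on only part of the irradiated arrays, and were not tested. Of the red cell enzymes, 0 of 9 rose and 1 fell: CAT, or catalase, which breaks down hydrogen peroxide, was 1.15 lower on day 4 after 6.7 Gy (adjusted p = 0.0143, limma), at 2.45 ± 0.30 against 3.60 ± 0.06 in controls (SD, n = 4 each). Its second probe passed at both doses on day 4, with -1.58 after 6.7 Gy and -1.31 after 7.4 Gy (adjusted p = 0.0186 and 0.0337, limma). The call of the first CAT probe was lost in 5 of 22 alternatives. These were no filter and the slide, scan day, position or replicate number as a fixed block (adjusted p = 0.0632 to 0.193, limma).

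Of the 6 tested genes of hemoglobin and heme clearance, 1 rose and 1 fell. HMOX1, the enzyme that opens the heme ring, was lower on day 4 at both doses: 4.52 ± 0.38 in controls, 3.33 ± 0.33 after 6.7 Gy and 3.20 ± 0.21 after 7.4 Gy (SD, n = 4 each). The log2 differences were -1.19 and -1.33 (adjusted p = 0.0321 and 0.0156, limma). The call after 6.7 Gy was lost in 15 of 22 alternatives, among them leaving out any day 4 array or control 1, 3 or 4. The call after 7.4 Gy was lost in 5 of 21, which were no filter, the slide, scan day or replicate number as a fixed block, and leaving out slides 4 and 5 (adjusted p = 0.0676 to 0.281), with differences of -1.40 to -1.22. On day 7 the HMOX1 differences were -0.73 and -1.26 (adjusted p = 0.454 and 0.0641), and on day 12 -0.26 and -0.48. LRP1, the receptor for heme bound to hemopexin among other ligands, was 1.13 higher on day 4 after 6.7 Gy (adjusted p = 0.0324, limma) and 1.00 higher after 7.4 Gy, just under 2-fold. Its call was lost in 15 of 22 alternatives, among them leaving out any control or day 4 array 1, 2 or 3. HPX (hemopexin) differed by -0.32 to 0.05 and HP (haptoglobin) by -0.41 to 1.92, and neither passed. The 1.92 came from the day 4 group after 6.7 Gy, in which HP ran from -3.70 to 3.63, and was 0.12 without the highest array, which lay on slide 5. CD163, the hemoglobin scavenger receptor, had no named probe. The globins of other cells gave 0 of 2, with NGB (neuroglobin) at -0.48 on day 4 after 7.4 Gy (adjusted p = 0.253). Without adjustment, at p under 0.05 and 2-fold in limma, 9.9% of all probes passed in at least 1 of the 6 comparisons with control. By that measure 3 of 11 heme synthesis genes passed (ALAS1, FECH and SLC25A37), 2 of 9 membrane and skeleton genes (ANK1 and ICAM4), 2 of 6 clearance genes (HMOX1 and LRP1) and 1 of 9 enzymes (CAT). It was 0 of 3 for other globins, 0 of 8 for regulators and 0 of 2 for globins of other cells.

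Between days, the limma calls among the 48 genes were few and went both ways. After 6.7 Gy, 1 rose and 2 fell from day 4 to day 7, where 0.795% of all probes were called higher and 0.753% lower, and 2 rose and 1 fell from day 4 to day 12, where 0.419% and 0.532% were called. After 7.4 Gy, 1 rose and 1 fell from day 4 to day 7 (0.852% and 0.792% of all probes), and 0 rose and 2 fell from day 4 to day 12 (0.816% and 1.6%). None passed from day 7 to day 12. Those that rose were CAT, by 1.11 and 1.27 on day 7 after 6.7 and 7.4 Gy (adjusted p = 0.0148 and 0.00717, limma) and by 1.20 on day 12 after 6.7 Gy (adjusted p = 0.0488), and SLC25A37, by 1.23 on day 12 after 6.7 Gy (adjusted p = 0.048).

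Among those that fell from day 4, ICAM4 fell by 2.06 and 2.21 on day 7 after 6.7 and 7.4 Gy and by 2.81 on day 12 after 7.4 Gy (adjusted p = 0.0158, 0.0105 and 0.0135, limma). LMO2, a partner of GATA1, fell by 1.47 on day 12 after 7.4 Gy (adjusted p = 0.0107), while its other probes differed by -0.14 and -1.19 and did not pass. ICAM4 was detected on 1 of 2 arrays of day 12 after 7.4 Gy. The probe-by-probe test of the methods gave 0 of 48 in each comparison of days, and the other alternatives were not run for these counts.

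**Figure D5:**
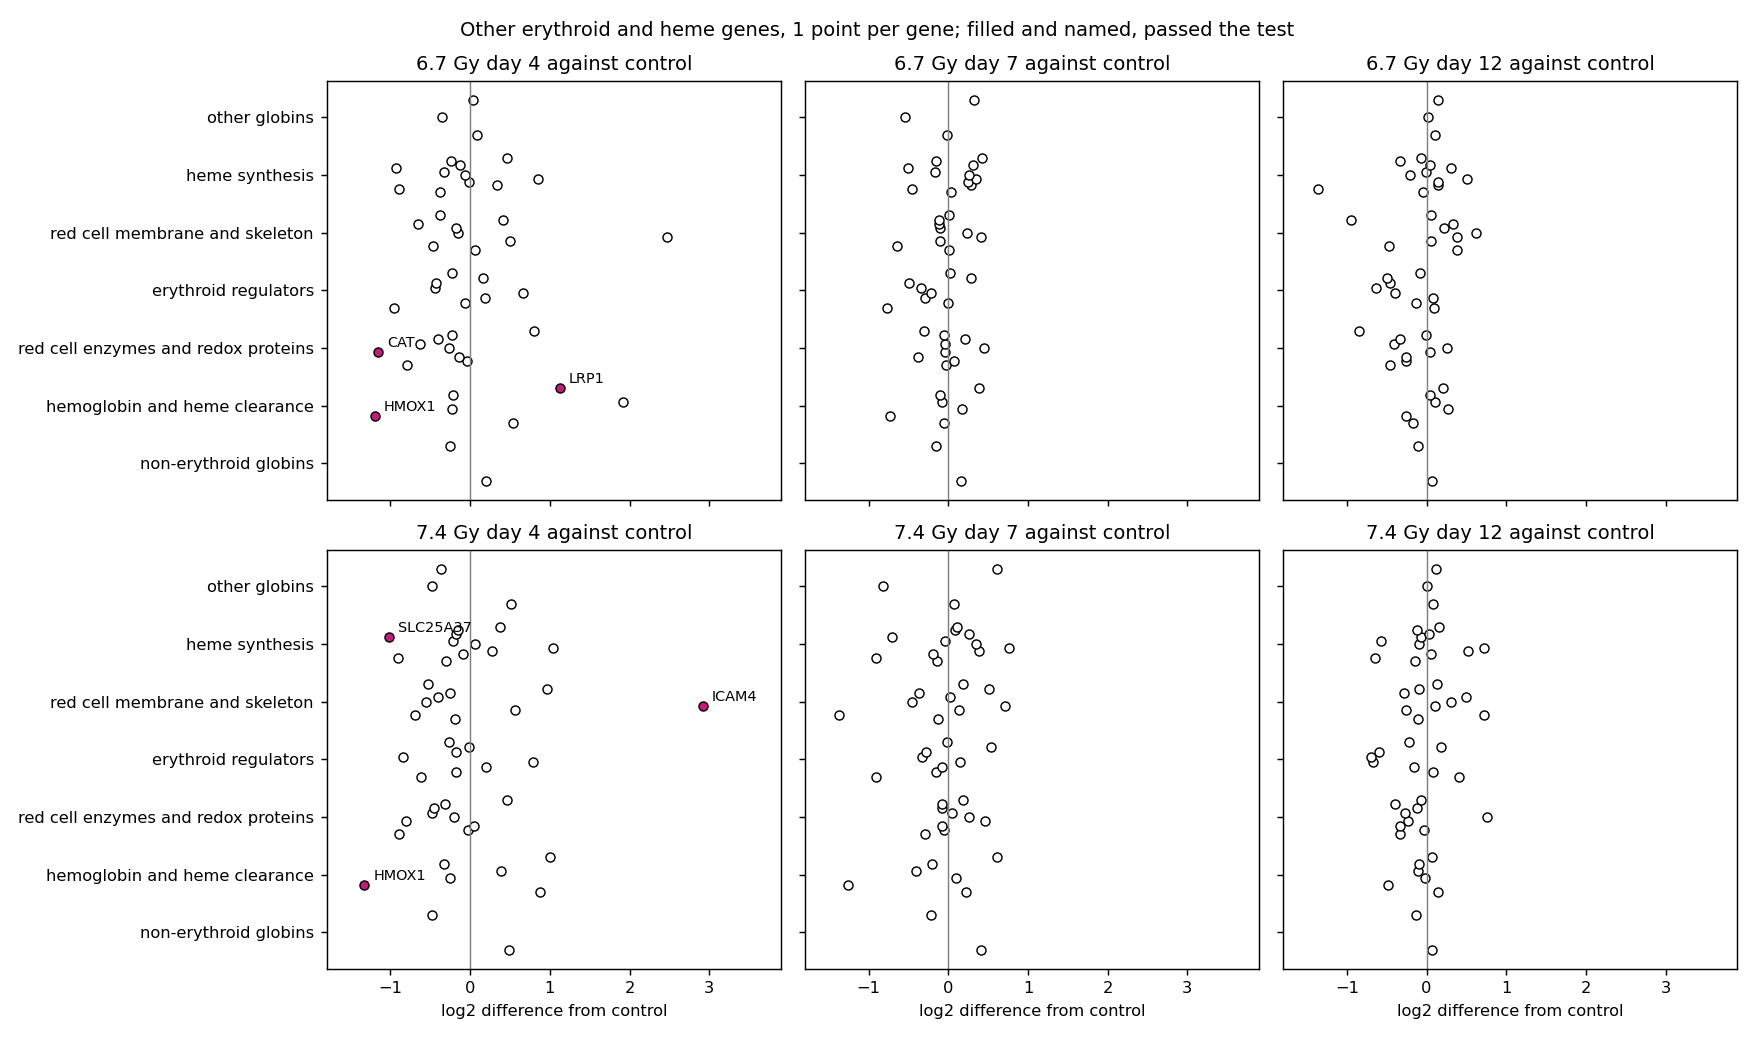
Log2 difference from control of the 48 tested erythroid and heme genes, by list and by group, 1 point per gene. Filled points are the genes that passed the test, 3 on day 4 after each dose and none on days 7 and 12.

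Markers of other cell types were read beside the globin probes, and their part in the globin values was not tested. For platelets, the other cells of blood without a nucleus, 9 genes had a probe and 3 were tested. None passed, and the smallest p was that of SELP (-0.33 on day 7 after 6.7 Gy, adjusted p = 0.461). The level summed over all 9 was 0.54 to 1.07 in controls. After 6.7 and 7.4 Gy it was 0.42 to 0.82 and 0.52 to 1.07 on day 4, 0.21 to 0.63 and 0.45 to 0.75 on day 7 and 0.84 to 1.00 and 0.74 to 0.88 on day 12. Most of the 9 were too dim to be tested, so the sum cannot show whether platelet RNA changed. Of the neutrophil and monocyte genes 1 of 5 passed, VNN2, which was 2.75 higher on day 4 after 7.4 Gy (adjusted p = 0.0469, limma), where 1.71% of all probes were called higher. The B cell genes (0 of 4) and the T and NK cell genes (0 of 8) did not pass, with CD79B at -0.90 on day 7 and CD3G at 0.85 on day 4 after 7.4 Gy (adjusted p = 0.0997 and 0.0646). The B cell level summed over the 6 genes with a probe was 0.58 to 1.87 in controls. It was -0.05 to 0.73 and 0.17 to 0.56 on day 4, 0.15 to 0.62 and -0.17 to 0.84 on day 7 and 0.80 to 1.00 and 0.87 to 0.89 on day 12 after 6.7 and 7.4 Gy, which overlapped with control in every group but day 4 after 7.4 Gy.

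Of the tested markers of vessels and muscle, where blood is held, none passed against control. The summed level of the 8 endothelial genes was 2.31 to 2.88 in controls, 2.71 to 3.25 and 2.78 to 3.32 on day 4, 2.03 to 2.53 and 2.16 to 2.75 on day 7, and 2.13 to 2.28 and 1.98 to 2.16 on day 12, after 6.7 and 7.4 Gy. On day 12 this sum lay below every control at both doses. The means of 8 of 8 and 7 of 8 endothelial genes were then lower than control after 6.7 and 7.4 Gy (median log2 difference -0.43 and -0.62). The smallest p of these genes was for ESAM, at -1.14 on day 12 after 7.4 Gy (adjusted p = 0.4, limma). On day 12 after 7.4 Gy, 4 of 8 endothelial genes were lower than on day 4, where 1.6% of all probes were called lower. The log2 differences were -1.95 for KDR, -1.40 for VWF, -1.34 for ESAM and -1.11 for EGFL7 (adjusted p = 0.0074 to 0.0378, limma). This comparison was picked after its values were seen, and its part in the globin values was not tested. Without adjustment, 5 of 8 enterocyte genes, 2 of 8 endothelial genes (ESAM and KDR), 2 of 4 B cell genes (CR2 and FCRLA), 1 of 5 neutrophil and monocyte genes and 0 of the platelet, T and NK cell and smooth muscle genes passed in at least 1 of the 6 comparisons with control, beside 9.9% of all probes. Smooth muscle gave 0 of 3 adjusted, with ACTA2 0.84 higher on day 4 after 7.4 Gy (adjusted p = 0.0555). Absorptive enterocyte genes had the most calls of the cell type lists on day 4: 3 of 8 fell after 6.7 Gy and 2 of 8 after 7.4 Gy, where 0.731% and 0.887% of all probes were called lower. RBP2 differed by -1.50 and -1.44 and FABP1 by -1.56 and -1.23 after 6.7 and 7.4 Gy, and VIL1, of the microvilli, by -1.58 after 6.7 Gy.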

How the data were processed

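Jejunal RNA of 24 animals was measured on 24 1-color arrays, 1 per animal. The authors deposited scanner files of background-corrected intensity per spot, made per the file headers with Agilent Feature Extraction 11.0.1.1, and a table of log2 values scaled to each array's 75th percentile, from which every row's median had been taken. The deposited log2 table was rebuilt from the authors' raw signals, raised to at least 1, with a largest deviation of 0.000222, and gave the gene symbols. Those raw signals were within 0.001 log2 of the scanner values used here for 99.89% of values, and the deposited table differed from the levels used here, centered alike, by up to 3.82 log2. No saturated spot was found. Spots of a probe were averaged, log2 signal was scaled to the 75th percentile of each array, and the 28171 of 43603 probes (64.6%) detected on every array of at least 1 group were tested in limma 3.58.1 (R 4.3.3). Comparisons with control used the arrays of the 2 groups, and those of days and doses used all 24 arrays in 7 groups. P values were adjusted by Benjamini-Hochberg over all probes tested, with calls at an adjusted p under 0.05 and 2-fold, the limits of the methods. For a gene of a list with several probes, the one with the highest mean level stood for it.

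Members and lists were chosen with earlier results of these data known. Named besides the members are the other globins, SLC4A1, GATA1, KLF1, EPOR, HP, HPX, CD163 and HMOX1, and per list up to 3 genes called against control or else the 1 with the smallest p. Genes named for a difference between days (LMO2) or for endothelium on day 12 were added after their values were seen. Some genes of the rule and lists are not reported here. Alternatives were normexp background (offset 50, on the median signal because the files hold no mean signal), other scaling, no filter, a common floor, slide, scan day, position and replicate number as blocks, other arrays in the fit, trend and robust moderation, the methods' t-test, the authors' values and each array left out. The random slide block took its correlation from every 20th probe. The fits were tested on simulated data. The number of arrays limits the precision. Each sample is a separate animal.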

Additional observations from a re-analysis of the deposited data

Results flagged for a closer look

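In groups of 4, the highest or lowest array was set against the other 3, for 30 combinations of probe and group. Chance flags about 1 in 20 such groups. In 2 of the 30, 1 array stood apart, both of them for HBB.

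For the first HBB probe (A_01_P1671806) on day 4 after 6.7 Gy, the third array read -5.52 while the others read -3.66, -3.86 and -3.95. The gap was 0.845 of the whole range of the group. For the second HBB probe (A_01_P1726606) on day 7 after 7.4 Gy, the first array read -4.84, above the others by 0.862 of the range. That array lay on slide 5, did not detect the probe, and had a lowest detected signal of 160.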

How the results depend on the processing

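Of 370 alternative values for the differences between the member probes and control, 18 moved by over 1 SD, and none of the HBB or first HBA2 differences came out above 0. For the first HBB probe, normexp background gave -5.61 on day 4 and -5.88 on day 7 after 6.7 Gy and -6.28 on day 7 after 7.4 Gy, and the common floor gave -4.52 in these groups and on day 4 after 7.4 Gy. For the second HBB probe, normexp after 6.7 Gy gave -3.95 on day 4, -3.91 on day 7 and -3.56 on day 12, and after 7.4 Gy it gave -3.92 on day 4 and -4.14 on day 7, and the common floor gave -1.79 in all 5. The first HBA2 probe on day 12 after 7.4 Gy was at -1.40 without slides 4 and 5, an alternative chosen after seeing the data.

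Of the 5 probes tested on day 12 against day 4 after 7.4 Gy, 1 was called. There were 2 calls with normexp and with the slide as a random block, the second being the first HBB probe, and 0 with no filter on dim probes, on the common floor, with only the arrays of the 2 groups, with the methods' t-test and without slides 4 and 5. On day 12 against day 7 after 7.4 Gy, the 1 call became 0 in these 5 settings and with normexp, the slide, the scan day or the position as a fixed block. With 1 array left out at a time, both comparisons gave 0 to 1, and so did day 7 against day 4 after 7.4 Gy, where 0 were called. The 1 there was the second HBB probe, without the first day 7 array, and no array of day 7 detected it. The HBB call was kept in 5 of 20 alternatives and the HBA2 call in 9 of 19. The cause of these changes was not tested.

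Of the 48 other erythroid genes, 3 were called on day 4 after 6.7 Gy. The count was 0 with no filter or with the slide or position as a block, 1 on the common floor, with the scan day as a block and with the t-test, and 1 to 3 with 1 array left out. After 7.4 Gy it was 3 on day 4, 0 with the slide as a block, 1 with no filter, with the scan day as a block or without slides 4 and 5, and 2 to 5 with 1 array left out. On day 7 after 7.4 Gy it was 0, but 1 with normexp, with all 24 arrays in the fit or with trend and robust moderation, and 0 to 1 with 1 array left out.

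Replicate numbers did not pair the animals: same-numbered arrays had correlations of -0.165 to 0.334 over 62 pairs, 15 of them over 0.1. With the replicate block, 0 of the 5 member probes were called on day 12 against day 4 or day 7 after 7.4 Gy, and 0 and 1 of 48 genes on day 4 after 6.7 and 7.4 Gy. For the other comparisons of the 5 member probes, and for the 48 genes against control on days 7 and 12, no call was made with or without it.

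Small differences changed sign. The second HBB probe on day 7 against day 4 after 6.7 Gy was 0.041 with normexp, but no array of either group detected it, so its sign there has no meaning. In the same comparison the first HBA2 probe ran from -0.12 to 0.13 with 1 array left out, and was above 0 without array 2 of day 4 (0.13) or array 4 of day 7 (0.05). After 7.4 Gy it was 0.23 and 0.016 with the slide as a fixed or random block, and ran from -0.21 to 0.13 with 1 array left out, above 0 without the first array of day 4 (0.13) or of day 7 (0.12).

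The position could not be fitted as a block in 10 comparisons, the scan day in 3 comparisons with control and the slide for day 12 after 7.4 Gy. High background on slides 4 and 5 limits what the dim HBB and ALAS2 probes can show, and day 12 rests on 2 animals per dose.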
